A study of Homo sapiens with 12 samples.

Results

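The genes described here are 10 early response genes, namely the transcription factor genes EGR1, EGR2, EGR3 and EGR4, the nuclear receptor genes NR4A1, NR4A2 and NR4A3, the EGR co-repressor genes NAB1 and NAB2, and ARC. They were taken by symbol, and all 10 were found among the 50868 genes of the count table. The cells were MG63, an established human osteosarcoma line grown in serum-containing medium, and 12 RNA libraries fell into 4 groups of 3. In one experiment cells were given vehicle or the small molecule anticarin-beta at 1 µM and harvested 18 hours later, and in the other they were transfected with Allstar control siRNA or with siRNA specific for CCT4, a subunit gene of the cytosolic chaperonin, and collected after 2 days. No genetic change beyond those of the line is named in the labels, and all groups come from this 1 line.

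Early response genes are transcribed within minutes of a stimulus from factors already present in the cell, chiefly serum response factor (SRF) with its ETS-family partners, which read ERK signalling, and CREB, which reads calcium and cyclic AMP. EGR proteins bind GC-rich DNA through zinc fingers, and NAB1 and NAB2 bind EGR proteins and repress their targets, with NAB2 itself induced by EGR1 as a brake. The NR4A proteins are orphan nuclear receptors that act without a known hormone, alone or, for some of them, with RXR partners. ARC encodes a cytoskeleton-associated protein best known from active neurons. In bone-forming cells EGR and NR4A genes are known to be induced by serum, parathyroid hormone and mechanical load.

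Promoter sequences are shown because the windows scanned differed in matches to the elements that SRF and CREB bind. RefSeq start sites on GRCh38.p14 gave 12 windows of 300 bases (250 before to 50 after the start) for 7 members, and the motifs were sought on both strands. The CArG box, the SRF element, was found in 1.29% of the 35116 promoter windows of the table, and 2 or more of them in 0.0313%. EGR1 held 2 CArG boxes, with the matches CCATATTAGG and CCATATATGG, and EGR2 held 1 in 1 of its 3 windows, while the windows of EGR4, NR4A1, NR4A3, NAB1 and NAB2 held 0. The last NR4A1 window ended at 52037764, and any start site further into this gene, which runs to 52059507, was not scanned. The core of the cyclic AMP element, TGACG, was found in 24.6% of windows, and 2 or more in 6.02%. NR4A3 held 4 of these cores, EGR1, EGR2 and EGR4 held 2 each, and each window of NAB1 held 1. The full element TGACGTCA, found in 1.85% of windows, was in 0 of these 7 members, as were the NR4A element AAAGGTCA (1.22% of windows) and the ETS motif CCGGAAG (10.3%). The EGR motif GCGNGGGCG, found in 9.43% of windows, occurred in EGR1, NAB2, 1 window of EGR2 and 2 overlapping windows of NAB1. The 200 bases before the start of 4 members are printed 5′ to 3′ on the strand of the gene, with every match in capitals (a core on the other strand reads CGTCA). EGR1 is shown for its CArG pair, EGR2 for the single CArG box beside 2 cores, NR4A3 for cores alone, and EGR4 for cores at a gene that was hardly transcribed here. Their positions are chr5:138465279-138465478 (plus strand), chr10:62816367-62816566 (minus), chr9:99821685-99821884 (plus) and chr2:73293549-73293748 (minus). A match is a description of letters, not of a bound site.
EGR1: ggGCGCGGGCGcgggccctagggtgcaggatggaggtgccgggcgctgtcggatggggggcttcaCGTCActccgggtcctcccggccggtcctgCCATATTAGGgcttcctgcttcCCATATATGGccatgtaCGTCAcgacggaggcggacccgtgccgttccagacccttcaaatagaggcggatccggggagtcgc
EGR2: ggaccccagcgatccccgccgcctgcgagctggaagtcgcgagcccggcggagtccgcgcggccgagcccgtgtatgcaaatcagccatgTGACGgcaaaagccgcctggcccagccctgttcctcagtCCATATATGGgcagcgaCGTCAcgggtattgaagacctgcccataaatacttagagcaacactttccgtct
NR4A3: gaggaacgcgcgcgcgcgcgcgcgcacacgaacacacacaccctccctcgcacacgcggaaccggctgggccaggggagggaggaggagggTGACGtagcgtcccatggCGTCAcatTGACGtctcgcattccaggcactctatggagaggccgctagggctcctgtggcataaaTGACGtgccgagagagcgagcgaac
EGR4: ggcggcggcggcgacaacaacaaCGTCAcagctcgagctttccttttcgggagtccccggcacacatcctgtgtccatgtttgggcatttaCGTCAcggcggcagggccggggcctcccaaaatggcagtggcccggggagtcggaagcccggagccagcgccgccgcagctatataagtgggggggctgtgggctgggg

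Library totals ran from 13393750 to 17492095 counts. Levels are given as CPM, the count relative to the library total after TMM scaling, on which 3 counts in 1 library correspond to 0.16 to 0.277 CPM. CCT4, the gene targeted by the siRNA, did not fall with its siRNA (mean 177 CPM, SD 14.4, with control siRNA and 206 CPM, SD 9.18, with CCT4 siRNA, n = 3 each; log2 fold change 0.22 ± 0.09, edgeR adjusted p = 0.129), so every direction given for that comparison is that of the labelled libraries. With anticarin-beta CCT4 fell from 236 ± 22.9 to 82.3 ± 8.49 CPM (log2 −1.52 ± 0.10, adjusted p = 1.84e-08). Mesenchymal genes were abundant in every group but not steady, with group means of 2190 to 3310 CPM for VIM and 533 to 5020 CPM for COL1A1. Osteoblast genes of the list were lower, with 11 counts for SP7, 1 for IBSP, 164 for BGLAP, 1275 for RUNX2 and 2576 for ALPL in all 12 libraries. Markers of epithelial, white blood, endothelial and nerve cells summed to 12.9 to 19.4 CPM per library over 12 genes. The endothelial gene PECAM1 had the most counts, with means of 4.52 CPM with vehicle, 2.2 with anticarin-beta, 12.9 with control siRNA and 12.7 with CCT4 siRNA. CD3E had 0 counts throughout. Of the 8 tested 2 were higher and 2 lower with the compound and 0 passed with CCT4 siRNA. The 10 mesenchymal and osteoblast markers summed to 9620 to 12500 CPM with vehicle, 15700 to 16400 with anticarin-beta, 5430 to 5760 with control siRNA and 6700 to 6960 with CCT4 siRNA, and of the 8 that could be tested 6 were higher with the compound and 3 with CCT4 siRNA. Over all genes tested the called shares were 34.9% higher and 38.0% lower with the compound, and 10.7% and 9.04% with CCT4 siRNA. The part of the markers in the results was not tested. Nothing in the labels ties a replicate to its own culture, and a p-value here covers the scatter of these libraries, possibly only a technical one.

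Of the 10 members, 9 passed the filter on low counts, which asks for about 0.668 CPM in at least 3 libraries, and EGR4 did not. EGR2 reached that level in 0 vehicle libraries and 1 control siRNA library, and EGR3 and ARC in 0 vehicle libraries, so these 3 entered the test through the groups in which they were high. EGR4 had 1 count in all, in CCT4 siRNA replicate 2, and 0 in the other 11 libraries. With anticarin-beta all 9 tested members were higher and 0 lower (edgeR quasi-likelihood test, adjusted over 17717 genes). Over all genes tested the same test called 34.9% higher and 38.0% lower. The median log2 fold change of the 9 was 2.70, against −0.06 over all genes. In the libraries labelled CCT4 siRNA 7 of the 9 were higher and 0 lower, where 10.7% of all genes were called higher and 9.04% lower, with medians of 0.68 and 0.01. More than 2-fold higher were 8 members with the compound, against 21.6% of all genes, and 4 with CCT4 siRNA, against 2.85%. These are RNA from whole cultures, in which a change in the number of responding cells and a change in RNA per cell cannot be told apart.

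**Figure D1:**
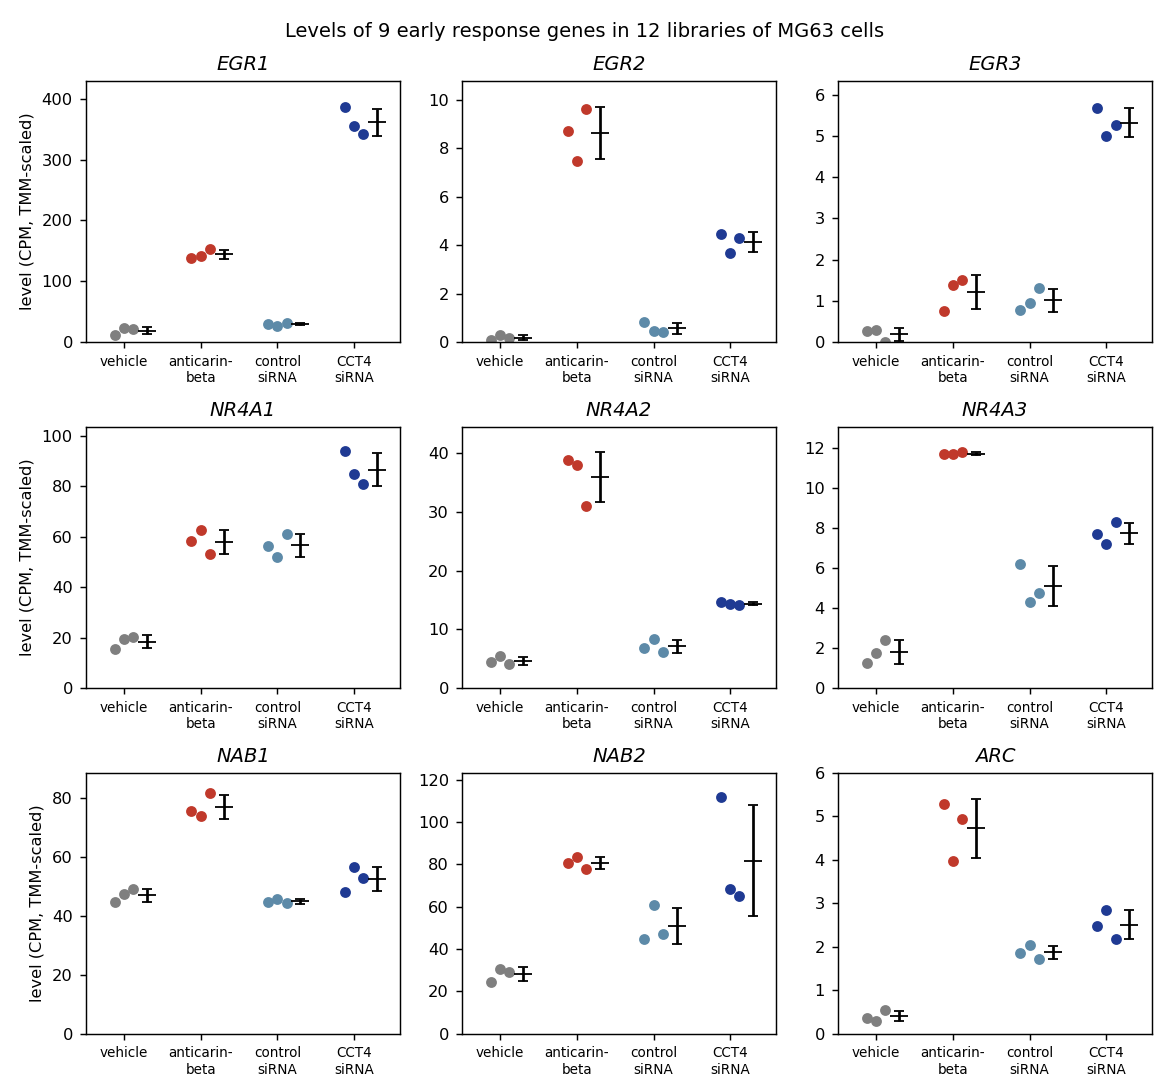
Level of each tested member (vertical axis, TMM-scaled CPM, linear and starting at 0) in the 4 groups (horizontal axis), with 1 point per library and a bar for the mean ± SD of 3 libraries. EGR1, EGR3 and NR4A1 stand highest in the libraries labelled CCT4 siRNA. EGR2, NR4A2, NR4A3, NAB1 and ARC stand highest with anticarin-beta. NAB2 has 1 CCT4 siRNA library at 112 CPM above the other 2 at 68.4 and 65.0.

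EGR1, the most abundant EGR gene here, is a single-transcript gene on the plus strand of chromosome 5 (138465490 to 138469315, GRCh38, GENCODE 29) and was low in both control groups. It stood at 12.1, 23.0 and 21.7 CPM with vehicle and at 139, 141 and 153 CPM with anticarin-beta. Control siRNA gave 29.8, 27.3 and 31.1 CPM, and CCT4 siRNA 386, 355 and 342 CPM. The order vehicle, control siRNA, anticarin-beta, CCT4 siRNA held with no overlap between neighbours. EGR1 was 7.63-fold higher with the compound (log2 fold change 2.93 ± 0.18, SE; adjusted p = 1.25e-08) and 12.3-fold higher in the libraries labelled CCT4 siRNA (3.62 ± 0.18, adjusted p = 2.56e-07). Ranked from the highest log2 fold change among 17717 genes, EGR1 was number 639 in the compound comparison and number 20 in the siRNA comparison.

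EGR2, known for its part in nerve myelination, was near the floor without treatment, with 2, 5 and 3 counts in the vehicle libraries (0.107, 0.302 and 0.16 CPM). Anticarin-beta brought 104, 81 and 115 counts (8.72, 7.49 and 9.62 CPM). Control siRNA libraries held 0.833, 0.444 and 0.417 CPM and those labelled CCT4 siRNA 4.45, 3.67 and 4.31 CPM. All 4 groups were separate, in the order vehicle, control siRNA, CCT4 siRNA, anticarin-beta. The gene, on the minus strand of chromosome 10 (62811996 to 62919900), was 44.5-fold higher with the compound (log2 5.48 ± 0.31, 95% interval of the fold 27.7 to 71.5, adjusted p = 6.36e-09), the largest change of any member. With CCT4 siRNA it was 7.28-fold higher (2.86 ± 0.28, adjusted p = 3.67e-05).

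EGR3 is induced by antigen-receptor and growth factor signals in other cells, and here it was a low-count gene. Its vehicle libraries had 5, 5 and 0 counts, and those with anticarin-beta 9, 15 and 18 (0.755, 1.39 and 1.51 CPM). Control siRNA gave 0.769, 0.951 and 1.31 CPM, which overlaps the range with anticarin-beta, and CCT4 siRNA gave 5.69, 5.0 and 5.27 CPM. Only the CCT4 siRNA group stood clear at the top and vehicle clear at the bottom. The compound difference was 6.30-fold (log2 2.66 ± 0.55, adjusted p = 0.000797), with a 95% interval from 2.74 to 14.5, and fell to 2.06 on the log2 scale without vehicle replicate 3, the library with 0 counts. The difference in the siRNA experiment was 5.21-fold (2.38 ± 0.36, adjusted p = 0.000902). An exon of a non-coding gene on the opposite strand shares 164 bases with EGR3, and whether reads were counted by strand is not known from the labels.

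Together the EGR genes were dominated by EGR1. Per kilobase of exon, EGR1 made up 98.4% ± 0.813 of the summed EGR level with vehicle, 94.7% ± 0.372 with anticarin-beta, 96.3% ± 0.189 with control siRNA and 98.1% ± 0.121 with CCT4 siRNA (SD, n = 3 each). EGR2 supplied 4.80% ± 0.432 of it with the compound and 0.958% ± 0.0923 with CCT4 siRNA. Within a library the ratio of EGR2 to EGR1 was 5.39-fold higher with anticarin-beta than with vehicle, whereas in the libraries labelled CCT4 siRNA it was 1.68-fold lower than with control siRNA. Neither pair of groups overlapped in this ratio, although 3 against 3 libraries cannot give an exact permutation p (two-sided) below 0.1, which is the value found for both.

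NR4A1, also called NUR77, had the smallest compound fold change of its family. It stood at 15.4, 19.6 and 20.2 CPM with vehicle and 58.2, 62.6 and 53.0 CPM with anticarin-beta. In the siRNA experiment the control libraries already held 56.4, 52.1 and 61.2 CPM, and those labelled CCT4 siRNA 93.9, 85.1 and 80.9 CPM. The control siRNA and anticarin-beta ranges overlapped, with vehicle below both and CCT4 siRNA above both. NR4A1 was 3.15-fold higher with the compound (log2 1.65 ± 0.12, adjusted p = 3.84e-08) and 1.53-fold higher with CCT4 siRNA (0.61 ± 0.11, adjusted p = 0.0024). It lies on the plus strand of chromosome 12 (52022832 to 52059507), and 754 of its 7295 exon bases (10.34%) are shared with a non-coding gene on the opposite strand.

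NR4A2, also called NURR1 and needed for dopamine neurons, had the steepest change of the family with the compound. Its vehicle libraries held 4.42, 5.37 and 4.12 CPM and those with anticarin-beta 38.8, 38.0 and 31.1 CPM. Control siRNA gave 6.79, 8.37 and 6.14 CPM and CCT4 siRNA 14.6, 14.4 and 14.2 CPM. All 4 groups were separate, with anticarin-beta the highest. NR4A2, on the minus strand of chromosome 2 (156324432 to 156342348), was 7.76-fold higher with the compound (log2 2.96 ± 0.15, adjusted p = 1.69e-09) and 2.03-fold higher with CCT4 siRNA (1.02 ± 0.14, adjusted p = 0.000482).

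NR4A3, also called NOR1, was the least abundant NR4A gene per kilobase of exon in each group (7.06% to 9.90% of the family's sum). Vehicle libraries held 1.23, 1.75 and 2.41 CPM, and those with anticarin-beta 11.7, 11.7 and 11.8 CPM. Control siRNA gave 6.21, 4.31 and 4.77 CPM and CCT4 siRNA 7.72, 7.21 and 8.29 CPM. Its 4 groups did not overlap either, in the order vehicle, control siRNA, CCT4 siRNA, anticarin-beta. The gene, on the plus strand of chromosome 9 (99821855 to 99866891), was 6.51-fold higher with the compound (log2 2.70 ± 0.22, adjusted p = 1.47e-07). Its change with CCT4 siRNA (1.52-fold, 0.60 ± 0.20, adjusted p = 0.0492) lay at the threshold and was not called in 14 of 21 other settings. Among these were the omission of vehicle replicate 2, any 1 anticarin-beta library, control siRNA replicate 2 or 3, or any 1 library labelled CCT4 siRNA (log2 0.50 to 0.65, adjusted p from 0.0593 to 0.165).

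Within the NR4A family the share of NR4A1 was lower with the compound. Per kilobase of exon NR4A1 made up 63.4% ± 2.41 of the family's summed level with vehicle and 42.1% ± 1.23 with anticarin-beta, while NR4A2 went from 29.6% ± 4.20 to 48.0% ± 1.85 (SD, n = 3 each). The ratio of NR4A2 to NR4A1 within a library, in which gene length cancels between groups, was 2.45-fold higher with the compound, and that of NR4A3 to NR4A1 2.12-fold higher, both with no overlap and with the smallest exact permutation p that this design can give, 0.1. In the siRNA experiment the corresponding changes were 1.33-fold (exact permutation p = 0.2) and 1.00-fold (exact permutation p = 1), with overlapping ranges. Which of NR4A1 and NR4A2 was higher per kilobase with the compound depends on the length used: by the principal transcript of each gene NR4A1 made up 80.1% with vehicle and 63.0% with anticarin-beta.

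NAB2, the inducible co-repressor, lies on the plus strand of chromosome 12 (57088894 to 57095476). It stood at 24.3, 30.6 and 29.3 CPM with vehicle and 80.8, 83.4 and 77.8 CPM with anticarin-beta, 2.87-fold higher (log2 1.52 ± 0.19, adjusted p = 1.05e-05). Control siRNA gave 44.8, 60.8 and 47.2 CPM, and CCT4 siRNA 112, 68.4 and 65.0 CPM. Replicate 1 thus stood apart in the last group, whose range overlapped that with anticarin-beta. The siRNA difference was 1.60-fold (0.68 ± 0.19, adjusted p = 0.023), and the call was lost without CCT4 siRNA replicate 1 (log2 0.39, adjusted p = 0.0765), without control siRNA replicate 1 (0.60, adjusted p = 0.088) or 3 (0.63, adjusted p = 0.0739), and in a fit of the siRNA experiment alone (0.67, adjusted p = 0.0619). Of the exon bases of NAB2, 69 (2.29%) overlap STAT6 on the opposite strand. STAT6, looked at for this overlap after the values of NAB2 were seen, was lower with the compound (log2 −0.98 ± 0.08, adjusted p = 9.87e-08) and with CCT4 siRNA (−0.39 ± 0.07, adjusted p = 0.00342), the direction opposite to NAB2. The part of the shared bases in the NAB2 counts was not tested.

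NAB1, the co-repressor expressed at a steady level in most tissues, had the smallest fold change of the 9 in both experiments. Vehicle libraries held 44.6, 47.3 and 49.0 CPM and those with anticarin-beta 75.5, 73.8 and 81.8 CPM, 1.64-fold higher (log2 0.71 ± 0.08, adjusted p = 2.7e-06). With library totals in place of TMM scaling the fold fell to 0.30 on the log2 scale, still called. Control siRNA gave 44.6, 45.9 and 44.5 CPM and CCT4 siRNA 48.2, 56.6 and 52.9 CPM, a log2 fold change of 0.22 ± 0.08 (95% interval 0.06 to 0.39) that did not pass (adjusted p = 0.0593). It passed without vehicle replicate 1 (0.22, adjusted p = 0.0474) or CCT4 siRNA replicate 1 (0.28, adjusted p = 0.0424). The lower 3 groups formed a chain of overlapping ranges, control siRNA with vehicle and vehicle with CCT4 siRNA, and only anticarin-beta stood apart. NAB1 lies on the plus strand of chromosome 2 (190646746 to 190692766).

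EGR1 stood higher relative to its co-repressor gene in both treated groups. Per kilobase of exon, the ratio of EGR1 to NAB2 was 0.479, 0.721 and 0.711 with vehicle and 1.65, 1.62 and 1.89 with anticarin-beta. With control siRNA it was 0.638, 0.430 and 0.631, and with CCT4 siRNA 3.32, 4.98 and 5.05. By this measure EGR1 mRNA was less abundant than NAB2 mRNA in all 6 control libraries and more abundant in all 6 treated ones. The change in the ratio was 2.74-fold with the compound and 7.83-fold with CCT4 siRNA, each with an exact permutation p of 0.1, the smallest possible. The ratio of NAB2 to NAB1 was 1.76-fold higher with the compound, with no overlap, and 1.34-fold higher with CCT4 siRNA, where the groups overlapped (exact permutation p = 0.3) and replicate 1 stood at 3.76 against 1.96 and 1.99.

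**Figure D2:**
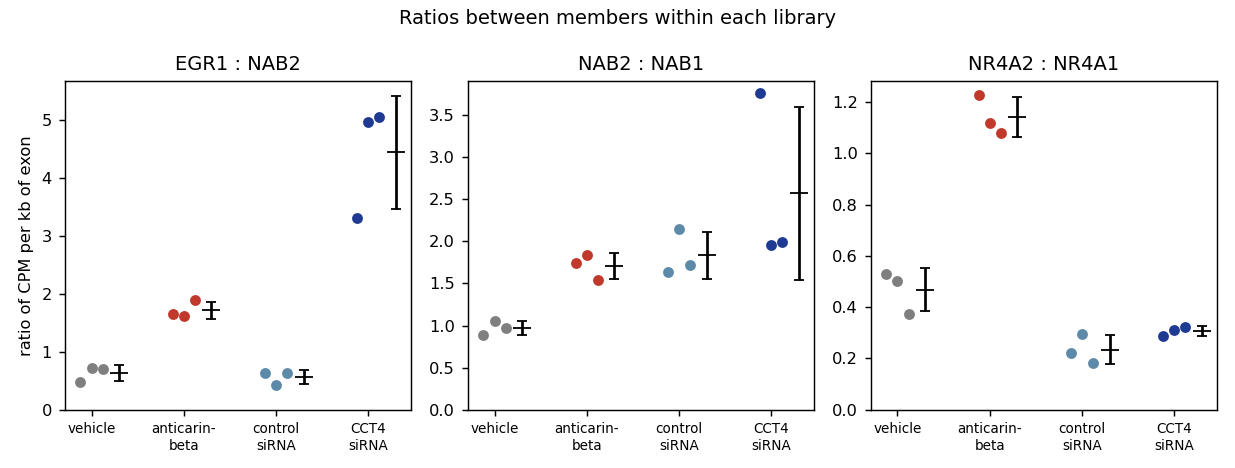
Ratios between members within each library, from CPM per kilobase of exon (vertical axes, linear and starting at 0), for the 4 groups, with 1 point per library and a bar for the mean ± SD of 3. EGR1 to NAB2 averages 0.637 with vehicle, 1.72 with anticarin-beta, 0.566 with control siRNA and 4.45 with CCT4 siRNA, whereas NR4A2 to NR4A1 is highest with anticarin-beta at 1.14.

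ARC was rare without treatment and had the largest difference in log2 fold change between the experiments. It had 7, 5 and 10 counts with vehicle (0.373, 0.302 and 0.535 CPM) and 63, 43 and 59 with anticarin-beta (5.28, 3.97 and 4.94 CPM), 11.5-fold higher (log2 3.52 ± 0.25, adjusted p = 4.22e-08). Control siRNA libraries held 1.86, 2.03 and 1.73 CPM and those labelled CCT4 siRNA 2.48, 2.85 and 2.19 CPM. The difference in the siRNA experiment, 0.42 ± 0.21 on the log2 scale with a 95% interval of the fold from 0.977 to 1.83, did not pass (adjusted p = 0.185), although the ranges did not overlap. No annotated exon overlaps ARC.

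**Figure D3:**
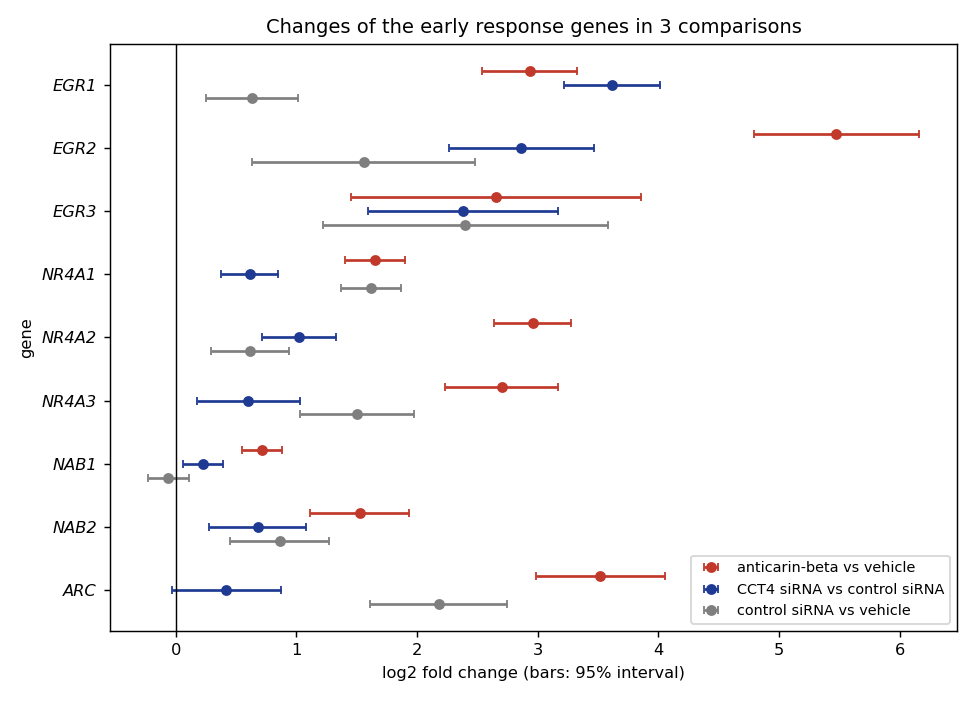
Log2 fold change (horizontal axis) of each tested member (vertical axis) with its 95% interval, for anticarin-beta against vehicle, CCT4 siRNA against control siRNA and control siRNA against vehicle. The compound estimates of the NR4A genes and ARC lie to the right of the siRNA estimates with separate intervals, while EGR1 lies at 2.93 and 3.62 and EGR3 at 2.66 and 2.38 with overlapping ones.

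The responses were compared directly as a contrast, (anticarin-beta minus vehicle) minus (CCT4 siRNA minus control siRNA). The treatments, times and controls of the experiments differ, so the contrast compares these experiments as run. Of 9 members 7 had the larger response to the compound and 1, EGR1, the larger response to CCT4 siRNA, where 27.5% and 32.4% of all genes were called in these directions. The difference was 3.10 ± 0.33 on the log2 scale for ARC (adjusted p = 4.28e-06), 2.61 ± 0.47 for EGR2 (adjusted p = 0.000406), 2.10 ± 0.29 for NR4A3 (adjusted p = 4.4e-05), 1.94 ± 0.20 for NR4A2 (adjusted p = 3.4e-06) and 1.04 ± 0.16 for NR4A1 (adjusted p = 9.09e-05). NAB2 (0.84 ± 0.26, adjusted p = 0.0146) and NAB1 (0.49 ± 0.11, adjusted p = 0.00182) were called too, but not with library totals alone (0.56 and 0.20). The EGR1 difference of −0.69 ± 0.24 (adjusted p = 0.026) lost its call without vehicle replicate 2 (−0.55, adjusted p = 0.0628) or 3 (−0.59, adjusted p = 0.0656), anticarin-beta replicate 1 (−0.66, adjusted p = 0.0525) or 2 (−0.67, adjusted p = 0.0507), control siRNA replicate 2 (−0.64, adjusted p = 0.056) or CCT4 siRNA replicate 1 (−0.64, adjusted p = 0.054). For EGR3 the difference was 0.27 ± 0.62, with a 95% interval from −1.07 to 1.61 (adjusted p = 0.722). A larger response in this contrast was not always a higher level, as the control levels differed too. NR4A1 averaged 18.4 CPM with vehicle, 56.6 with control siRNA, 57.9 with anticarin-beta and 86.6 with CCT4 siRNA. NAB2 averaged 28.1, 50.9, 80.7 and 81.6 CPM in the same order of groups. EGR2, NR4A2, NR4A3, NAB1 and ARC did stand highest with anticarin-beta.

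**Figure D4:**
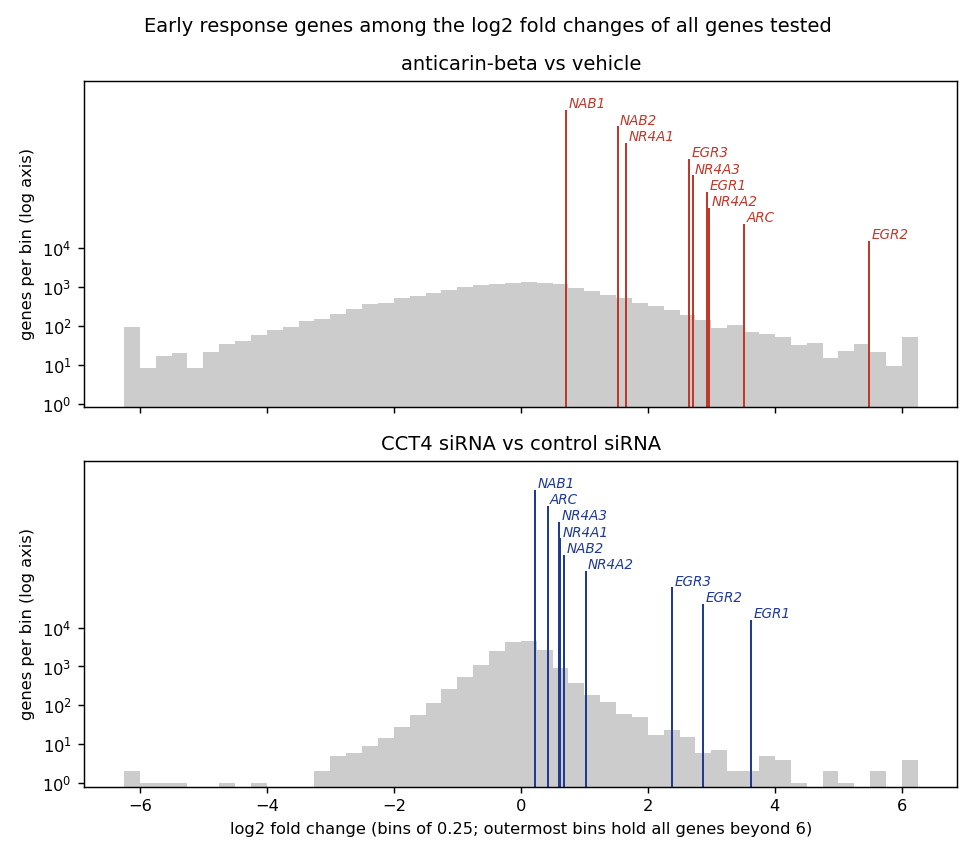
Number of genes per bin of log2 fold change (grey bars, log vertical axis) for all 17717 genes tested, with a vertical line at each tested member; line heights only separate the names. With anticarin-beta the members spread from 0.71 (NAB1) to 5.48 (EGR2) over a broad distribution, and in the siRNA experiment EGR3, EGR2 and EGR1 lie in the sparse right tail of a narrow one.

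The control groups were not alike in these genes. Control siRNA libraries were higher than vehicle libraries in 8 of 9 members and lower in 0, where 24.8% of all genes were called higher and 23.6% lower. The fold was 5.28 for EGR3 (2.40 ± 0.54 on the log2 scale, adjusted p = 0.00281), 4.54 for ARC (2.18 ± 0.26, adjusted p = 2.02e-05), 3.07 for NR4A1 (1.62 ± 0.11, adjusted p = 1.97e-07) and 2.83 for NR4A3 (1.5 ± 0.22, adjusted p = 0.000104). EGR2 was 2.94-fold (adjusted p = 0.00878), NAB2 1.81-fold (adjusted p = 0.00223), EGR1 1.55-fold (adjusted p = 0.00964) and NR4A2 1.53-fold higher (adjusted p = 0.00425). The EGR3 value fell to 1.81 on the log2 scale without vehicle replicate 3, and the EGR2 call was lost without control siRNA replicate 1 (1.18, adjusted p = 0.0834). EGR2, EGR3 and ARC reached the level of the low-count filter in 0 vehicle libraries. EGR3 and ARC reached it in 3 control siRNA libraries, so for these genes the filter favoured this direction. NAB1 did not pass the test (log2 −0.06, 95% interval −0.23 to 0.11, adjusted p = 0.538). Transfection, vehicle, time in culture and experiment cannot be told apart in this comparison. It shares its libraries with both responses, so the level with control siRNA enters each siRNA fold change. Marker genes differed between the controls too: of 8 mesenchymal and osteoblast markers tested 2 were higher and 3 lower with control siRNA, with COL1A1 7.08-fold, COL1A2 5.08-fold and SPARC 2.96-fold lower. Of 8 tested markers of other cell types 1 was higher (PECAM1, 2.85-fold) and 3 lower, among them KRT19 (6.46-fold). Their part in the differences of the members was not tested.

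Genes of the surrounding pathway were described from lists in the same way. Of 22 upstream factors and kinases 15 were higher and 4 lower with anticarin-beta (median log2 fold change 0.84), and 6 and 0 with CCT4 siRNA (median 0.20). Over all genes the called shares were 34.9% higher and 38.0% lower with the compound and 10.7% and 9.04% with CCT4 siRNA. With library totals alone 9 of the 22 were lower with the compound, and the siRNA counts were 1 and 2. With that scaling 8959 of 17717 genes were lower with the compound, and 902 were higher and 2800 lower with CCT4 siRNA. Among the 22 the coactivator gene MKL1 was 3.95-fold higher with the compound, CREB1 3.32-fold, the ETS factor gene ELK1 3.28-fold and ATF1 3.07-fold. The 4 that were lower with the compound were MKL2 (4.26-fold), RPS6KA1 (2.51-fold), MAPK3 (1.82-fold) and RPS6KA5 (1.54-fold). In the siRNA experiment CREB1 was 1.38-fold and ATF1 1.25-fold higher. Without control siRNA replicate 1 or CCT4 siRNA replicate 2 or 3 the siRNA count was 3, and without control siRNA replicate 2 or CCT4 siRNA replicate 1 it was 2. Over all genes 1182 to 1254 were called higher in these omissions, of 18233 to 18289 tested. The siRNA call of ELK1 (log2 0.26 ± 0.07) was lost without control siRNA replicate 2 (0.24) or 3 (0.25) and without CCT4 siRNA replicate 1 (0.22) or 2 (0.26), and that of MKL1 (0.31 ± 0.08) without control siRNA replicate 1 (0.31) or 2 (0.26) and without CCT4 siRNA replicate 1 (0.28) or 3 (0.29). With library totals alone ATF1 (0.20) lost it too, and CREB1 kept it.

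Textbook targets of EGR1 were called in both directions, as were all genes (34.9% higher and 38.0% lower with the compound, 10.7% and 9.04% with CCT4 siRNA). Of 16 listed genes 15 were tested, 8 of them higher and 5 lower with anticarin-beta (median 0.65), and 5 higher and 3 lower with CCT4 siRNA (median 0.18). On leaving out control siRNA replicate 1, control siRNA replicate 3 or any 1 CCT4 siRNA library, 1 was lower in place of 3. Over all genes 995 to 1164 were called lower in these omissions, of 18236 to 18289 tested. F3, the tissue factor that starts coagulation, was 10.3-fold higher with the compound, and its log2 fold change with CCT4 siRNA was 0.31 ± 0.15. HBEGF, an EGF receptor ligand, was 5.71-fold and 1.97-fold higher in the respective experiments, and ICAM1, an adhesion receptor, 4.33-fold and 1.72-fold. The growth factor gene PDGFB went the other way, with log2 fold changes of −2.59 ± 0.23 and −0.65 ± 0.15.

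Genes that respond to CREB were mostly higher with the compound, where 34.9% of all genes were higher and 38.0% lower (10.7% and 9.04% with CCT4 siRNA). Of 10, 8 were higher and 1 lower with anticarin-beta (median 2.21), against 4 and 2 with CCT4 siRNA (median 0.16). On leaving out control siRNA replicate 1, control siRNA replicate 2, CCT4 siRNA replicate 2 or CCT4 siRNA replicate 3, 1 was lower in place of 2. Over all genes 995 to 1042 were called lower in these omissions, of 18233 to 18265 tested. GEM, a small GTPase gene, was 41.2-fold higher with the compound and 3.40-fold with CCT4 siRNA. The kinase gene SIK1, a brake on CREB coactivators, was 5.0-fold higher with the compound and fell by 0.54 ± 0.09 on the log2 scale with CCT4 siRNA (adjusted p = 0.00124). The list of other immediate-early genes had 26 members (DUSP1 and FOSB are in the CREB list too), 23 of them called higher with anticarin-beta and 19 with CCT4 siRNA, against 34.9% and 10.7% of all genes. The medians of the list were 2.76 and 0.89, and 0 were called lower in either. With library totals alone 1 was called lower in each, against 8959 of 17717 genes with the compound and 2800 with CCT4 siRNA. JUN, a subunit of the AP-1 factor, had log2 fold changes of 4.21 ± 0.08 and 2.34 ± 0.07.

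Partners of the members were described alike. Of 13 genes of the NuRD complex, through which NAB2 represses, 4 were higher and 5 lower with the compound (median −0.19), or 2 and 9 with library totals alone, and 3 and 0 with CCT4 siRNA (median 0.17), or 1 higher without control siRNA replicate 1 or with library totals alone. The compound counts are near the shares over all genes (34.9% higher and 38.0% lower). With CCT4 siRNA the shares over all genes were 10.7% higher and 9.04% lower. GATAD2B was 4.29-fold higher with the compound and HDAC1 1.78-fold higher with CCT4 siRNA, whereas MTA3 fell by 1.16 ± 0.15 on the log2 scale with the compound. Of the NR4A dimer partners, RXRA was 1.91-fold lower and RXRB 1.78-fold higher with anticarin-beta, and RXRG, with 23 counts in all, was not tested.

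Genes whose pattern was most like that of a member were ranked by Pearson's r of log2 CPM over the 12 libraries, among 11632 genes of at least 5 CPM in a group. The libraries share their groups, so r here mainly reflects 4 group levels. The closest to EGR1 were CXCL2 (r = 0.989), EFNA1 (0.986), MSN (0.957), BBC3 (0.954) and TM9SF2 (0.954). NR4A1 was followed most closely by IER3 (0.993), DUSP1 (0.992), SDC4 (0.990), IL1A (0.988) and UBALD2 (0.987), and NAB2 by SMOX (0.962), SH3BGRL3 (0.955), FOSB (0.953), PFKFB3 (0.952) and CSRNP1 (0.948). Among the members themselves r over these libraries ranged from 0.20 for EGR3 with NAB1 to 0.97 for NR4A3 with ARC, and EGR2 followed NR4A2 (0.96) more closely than EGR1 (0.89).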

How the data were processed

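RNA-seq read counts per gene were analysed for 12 MG63 libraries in 4 groups of 3. The authors deposited raw counts for 50868 genes, not normalized or pooled. Libraries were stranded TruSeq, per the labels' protocols, and STAR 2.5.2a, featureCounts 1.5.0 and Subread with hg38 are named in the submitters' processing notes. Not given in the sources used here are the annotation release, the strand setting and the treatment of reads with several hits.

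Differential expression was tested with edgeR 4.0.16 in R 4.3.3 (quasi-likelihood, two-sided, TMM, filterByExpr, 1 mean per group over 12 libraries, 8 residual degrees of freedom), with Benjamini-Hochberg adjustment over 17717 genes and a threshold of 0.05. A prior count of 0.125 entered each fold change, and its standard error was taken from the F statistic. Fold changes of ratios between groups used a pseudocount of 0.5, and the ratios and shares per kilobase used none. Models came from GENCODE 29, which held 98.5% of gene identifiers. The code was tested on simulated data. Alternatives were other scalings, DESeq2 1.42.0, limma-voom (limma 3.58.1), either experiment by itself, other filters on low counts, a replicate block and the omission of each library, with the principal transcript length added after seeing the data. Replicate numbers did not pair the libraries. Within groups, differences between libraries exceeded sampling noise (chi-square over its degrees of freedom 8.48 to 26.48), and each library was 1 sample. The vehicle group was the noisiest, at 24.83 and 26.48 for the pairs with replicate 1 and 13.48 for replicates 2 and 3. Pairs in the other groups had 8.48 to 10.90.

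The members, lists and tests were chosen with earlier results of these data known. All 10 members are named. From each list up to 4 genes with the smallest p in a response could be named. Other genes were added after their values were seen. These were PDGFB, F3 in the siRNA experiment, MKL2, RPS6KA1, MAPK3, RPS6KA5 and RXRG. From the marker lists VIM, SP7, IBSP, BGLAP, RUNX2, ALPL, CD3E and the markers named between the controls were added in the same way.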

Additional observations from a re-analysis of the deposited data

How the results depend on the processing

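In the compound comparison all 9 tested members stayed called in every alternative that tested them; EGR3 fell below the filter when that experiment was fitted alone. Over the omissions of 1 library the members called were 9 to 9 for the compound, 5 to 8 for CCT4 siRNA, 7 to 8 for the contrast of responses and 7 to 8 for the control groups. All genes called ranged from 12478 to 13148, 2202 to 4026, 10160 to 10614 and 7697 to 8639. The siRNA count was more than 1.5 times below 3493 on leaving out control siRNA replicate 1 (2207), control siRNA replicate 2 (2202) or any CCT4 siRNA library (2274, 2223 and 2296 for replicates 1, 2 and 3). Of 737 member fold changes under alternatives, 706 kept direction and side of the threshold, 27 lost the call, 2 gained it and 2 turned: the EGR3 contrast of responses, at −0.008 with library totals alone and from −0.33 (without vehicle replicate 3) to 0.705 over omissions of 1 library. The cause was not tested.

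Scaling by library totals alone moved the median of all genes to −0.48 with the compound and −0.12 with CCT4 siRNA, with 32.4% and 24.4% of calls higher against 47.9% and 54.2% with TMM; for the contrast of responses the share was 33.8% against 45.9%. The replicate block left 9 members called with the compound and 6 with CCT4 siRNA, where NR4A3 lost its call (0.60, adjusted p = 0.0702), and changed no other member's call. Same-numbered libraries did not deviate together (correlations from −0.03 to 0.03). Low counts limit EGR2, EGR3, EGR4 and ARC most.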
